A study of Ovis aries with 6 samples.

Results

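The OXT-high barcodes are a small set of droplets from the ovaries of Hu sheep that carry very high counts of OXT, the gene of the oxytocin and neurophysin precursor. They were chosen from the counts themselves. A barcode had to hold at least 1000 UMI (unique molecular identifiers, each of which marks 1 captured RNA molecule), at most 10% of UMI in mitochondrial genes, at least 30 OXT UMI, and at least 50 OXT UMI per 10000 UMI. Of 52290 deposited barcodes 38465 met the first pair of limits, and 100 of these were OXT-high, or 0.26%. OXT levels are therefore given as a description of the choice, without a test.

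One ovary of each of 6 Hu ewes was digested and sequenced as 1 library of 3′ single-cell RNA, with all ewes slaughtered at estrus as adults. The HLS group held 3 ewes with a litter size of 3 or more, and the LLS group held 3 ewes with a litter size below 2. No treatment or genetic change was applied to either group. The libraries of HLS ewes 1, 2 and 3 held 66078867, 70642256 and 62559119 UMI, and those of LLS ewes 1, 2 and 3 held 75549906, 43329214 and 60183139 UMI.

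In the ruminant ovary, the corpus luteum forms from the granulosa and theca cells of an ovulated follicle and secretes progesterone. Its large luteal cells make oxytocin, cut the precursor with prohormone convertases, and carry the prostaglandin F receptor PTGFR, through which the gland is brought to regress. Progesterone is made from cholesterol, which STAR moves into the mitochondrion, CYP11A1 cleaves with electrons passed on by FDXR and FDX1, and HSD3B1 converts.

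Nearly all of the OXT-high barcodes came from a single ewe. LLS ewe 3 held 96 of the 100, among 7553 passing barcodes, a share of 1.27% (95% exact binomial interval 1.03 to 1.55). HLS ewe 1 held 2 of 5654 and LLS ewe 1 held 2 of 6610. None was found in HLS ewe 2, where 0 of 7397 barcodes allows a share of up to 0.0406%, taken as 3 barcodes of the total. The same held for HLS ewe 3 with 0 of 5827, which allows up to 0.0515%, and for LLS ewe 2 with 0 of 5424, which allows up to 0.0553%. These intervals and limits cover counting error only. The mean share was 0.0118% ± 0.0204 (SD, n = 3) in HLS ewes and 0.434% ± 0.725 (SD, n = 3) in LLS ewes. As the rule used the OXT counts, this difference is a description without a test. Without LLS ewe 3 the difference between HLS and LLS was -0.00334 percentage points.

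Whole-library OXT counts followed the same split. HLS ewes 1, 2 and 3 held 687, 361 and 560 OXT UMI over all deposited barcodes, LLS ewes 1 and 2 held 688 and 631, and LLS ewe 3 held 45975. The OXT-high barcodes of LLS ewe 3 accounted for 42516 of these, or 92.5%. Across the 96 barcodes, the OXT level had a median of 304 UMI per 10000, with quartiles of 179 and 454. The lowest barcode inside the limit stood at 55.0 per 10000. The highest barcodes outside it with at least 30 OXT UMI stood at 31.6 in HLS ewe 3 and at 27.2 in LLS ewe 3. LLS ewe 1 also held such a barcode, with 53 OXT UMI (15.5 per 10000), 344 of HSD3B1 and 186 of CYP11A1. Those of HLS ewes 2 and 3 held 0 UMI of HSD3B1. A further 15 barcodes of LLS ewe 3 passed 50 per 10000 but held fewer than 30 OXT UMI. No barcode sequence of an OXT-high barcode occurred in another library. Sharing was rare for all barcodes, with 13 to 28 sequences per pair of libraries of 7992 to 9135 deposited barcodes each. The absence is therefore not particular to the set.

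**Figure D1:**
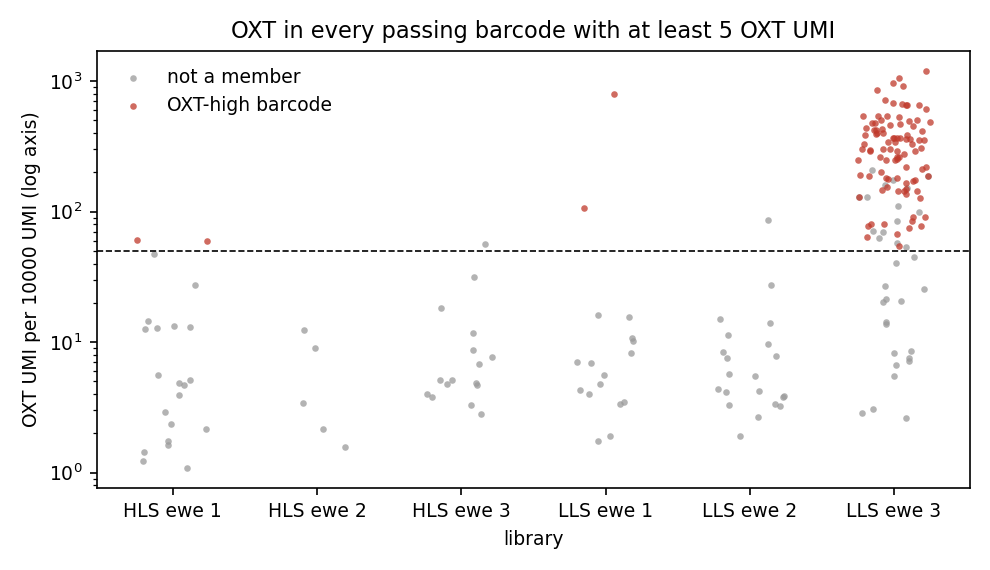
OXT level (UMI per 10000 UMI, log axis) of every passing barcode with at least 5 OXT UMI, by library. Each point is 1 barcode, red points are OXT-high barcodes, and the dashed line marks 50 per 10000. Red points number 96 in LLS ewe 3, 2 in HLS ewe 1 and 2 in LLS ewe 1.

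OXT RNA was also found at low counts in other cells of LLS ewe 3. Endothelial barcodes held at least 4 UMI over the endothelial genes CDH5, PECAM1 and VWF and fewer than 30 OXT UMI. They also held fewer than 4 UMI over CDH2, FST, INHA and FSHR and fewer than 4 over CYP17A1 and INSL3. Of these barcodes, which should lack OXT, 17.7% carried an OXT UMI in LLS ewe 3 at a median depth of 6710.5 UMI. In the other 5 libraries this share was 2.07, 1.63, 2.08, 2.27 and 1.85%. The summed OXT level of these endothelial barcodes in LLS ewe 3 was 0.248 per 10000, against 328 per 10000 in the OXT-high barcodes. As OXT limits took part in choosing both classes, this contrast is a description of the choice. Between these levels lay 29 barcodes of LLS ewe 3 with 5 to 29 OXT UMI, at a median depth of 2162 UMI. Their summed levels per 10000 were 2.63 for HSD3B1, 7.04 for CYP11A1 and 16.6 for LOC101105185, and what they are was not tested. In LLS ewe 1, 14 barcodes in this OXT range stood at 15.1 for HSD3B1 and 7.45 for CYP11A1, without LOC101105185. The remaining libraries reached at most 1.45 for HSD3B1 in this range.

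The 4 other markers of the set were not found in every barcode. Of the 96 barcodes of LLS ewe 3, 88 held a UMI of FDX1, 86 of CYP11A1, 73 of HSD3B1 and 69 of PTGFR. All 4 were detected in 53 barcodes, at least 3 in 77, 2 in 14, 1 in 4 and none in 1. A single UMI can be background, since 24.8% of endothelial barcodes of this library held FDX1, 31.6% CYP11A1, 2.62% HSD3B1 and 1.22% PTGFR, at a median depth of 6710.5 UMI. After thinning every barcode to 1000 UMI, the shares of OXT-high barcodes were 65.6, 58.3, 53.1 and 28.1%, and those of endothelial barcodes were 3.82, 7.74, 0.256 and 0.0854%, in the same order of genes. STAR was almost absent and LHCGR low in these barcodes, as described further on, so the set is named here by its rule. The median depth was 9195 UMI and 2562.5 genes per barcode.

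The 4 barcodes from other ewes differed by ewe. In HLS ewe 1, barcodes of 7133 and 9973 UMI held 43 and 59 OXT UMI but no HSD3B1, CYP11A1 or FDX1, and 1 PTGFR UMI each. They carried 18 and 30 UMI of RGS5, a marker of pericytes, and the summed level of the perivascular list was 37.4 per 10000 against 0.209 in the barcodes of LLS ewe 3. The markers of HLS ewe 1 thus went against a luteal label. In LLS ewe 1, barcodes of 1790 and 6134 UMI held 142 and 66 OXT UMI, together with 6 and 7 UMI of HSD3B1, 11 and 42 of CYP11A1, 9 and 42 of FDX1, and 3 and 15 of PTGFR. They also held 15 and 147 UMI of STAR, whereas all 96 barcodes of LLS ewe 3 held 12 STAR UMI together. Neither barcode of LLS ewe 1 held a haemoglobin or IL1RL1 UMI.

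Since 1 library held 96 of 100 barcodes, gene levels were compared within LLS ewe 3 as values, with no test across ewes. Levels are UMI of a gene summed over all barcodes of a class, per 10000 UMI of that class, with 95% exact Poisson intervals that cover counting error only. Granulosa barcodes were those with at least 4 UMI over CDH2, FST, INHA and FSHR and fewer than 5 OXT UMI (315 in LLS ewe 3, 2627 in all ewes). Theca barcodes held at least 4 UMI over CYP17A1 and INSL3, fewer than 4 over the granulosa genes and fewer than 5 of OXT (252 in LLS ewe 3, 824 in all). The spread of each comparison class over the 6 ewes is given by its lowest, median and highest level. At least 3 UMI of endothelial, stromal, perivascular or immune markers were found in 41 of the 96 OXT-high barcodes (42.7%), in 281 of the 315 granulosa barcodes (89.2%) and in all 252 theca barcodes. Over all passing barcodes of LLS ewe 3 this share was 95.8%, and the limit takes no account of depth. No doublet caller was applied. Barcodes with such markers are called mixed, whether or not they are doublets. Ratios without them are given for HSD3B1, CYP11A1, FDX1, NR5A2 and LHCGR only.

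Of 8651 genes with a mean level of at least 0.1 per 10000 over both classes, 1273 (14.7%) stood at least 2 times higher in OXT-high than in granulosa barcodes of LLS ewe 3, and 1946 (22.5%) at least 2 times lower. Against theca barcodes, 17.3% of 8253 genes stood at least 2 times higher and 17.2% at least 2 times lower. The median log2 ratio of all genes was -0.11 against granulosa and 0.058 against theca barcodes.

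Genes of progesterone synthesis were high in the OXT-high barcodes, with 5 of 8 measured genes at least 2 times above granulosa barcodes (CYP11A1, FDXR, HSD3B1, TSPO and NR5A2) and none at least 2 times below. Of all genes, 14.7% were higher and 22.5% lower than in granulosa barcodes. Against theca barcodes 3 of 8 were higher (HSD3B1, TSPO and NR5A2), 1 lower (STAR) and 4 between. There, 17.3% of all genes were higher and 17.2% lower. HSD3B1, which forms progesterone, stood at 13.9 per 10000 (13.3 to 14.6) in OXT-high barcodes. Its level in granulosa barcodes of the 6 ewes was 0.0538 at the lowest, 0.304 at the median and 0.889 at the highest, the last in LLS ewe 3. In theca barcodes it was 0.493, 0.991 and 1.64, again highest in LLS ewe 3. The OXT-high level was above every ewe of both classes, 15.7-fold above granulosa (14.0 to 17.6) and 8.5-fold above theca barcodes (7.77 to 9.3) of the same library. Without mixed barcodes, 55 OXT-high and 34 granulosa barcodes were left. The log2 ratio to granulosa barcodes then moved from 3.97 to 6.87 for HSD3B1 and from 1.55 to 4.41 for CYP11A1. For FDX1 it moved from 0.99 to 4.59, and for NR5A2 from 3.1 down to 1.32. HSD3B1 was unevenly spread over the 96 barcodes, with a median of 5.97 per 10000 and 49.0% of its UMI in the 10 highest barcodes.

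CYP11A1, the side-chain cleavage enzyme, stood at 12.2 per 10000 (11.6 to 12.8). Granulosa barcodes ranged from 1.44 through a median of 2.79 to 4.15, and theca barcodes from 3.47 through 5.67 to 10.5. OXT-high barcodes were thus 2.93-fold above granulosa (2.73 to 3.14) and 1.44-fold above theca barcodes (1.36 to 1.53) of LLS ewe 3. FDX1, its electron donor, stood at 10.4 per 10000, against granulosa levels of 1.06, 2.03 and 5.47 and theca levels of 6.88, 9.12 and 12.4 (lowest, median and highest). That level lay 1.98-fold above granulosa barcodes of LLS ewe 3 and within the range of theca barcodes. FDXR, the ferredoxin reductase, stood at 2.37 per 10000, 3.87-fold above granulosa barcodes (3.26 to 4.59).

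NR5A2, a nuclear receptor that drives steroidogenic genes, set the OXT-high barcodes apart from theca barcodes. It stood at 5.52 per 10000, against a highest level of 1.36 in granulosa and 0.0273 in theca barcodes over the 6 ewes. It was 8.6-fold above granulosa barcodes of LLS ewe 3 (7.46 to 9.94), and by 1.32 on the log2 scale without mixed barcodes. The related receptor NR5A1 was near the detection limit, with 2 UMI in the 96 barcodes.

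STAR was almost absent from the OXT-high barcodes of LLS ewe 3. Its 12 UMI lay in 7 of the 96 barcodes, a level of 0.0927 per 10000 (0.0479 to 0.162). Granulosa barcodes stood between 0.00326 and 0.115 with a median of 0.0652, and theca barcodes between 0.0917 and 0.351 with a median of 0.193. No difference from granulosa barcodes was detectable at this depth (ratio 0.825, interval 0.398 to 1.58). STARD3, another cholesterol transporter, held 15 UMI. In LLS ewe 1, by contrast, the level of STAR was 83.8 and 240 per 10000 in the OXT-high barcodes.

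Of 5 measured genes of sex steroid synthesis, 3 stood at least 2 times below granulosa barcodes (CYP17A1, HSD17B1 and CYB5A) and 2 above (HSD17B12 and SRD5A1), beside 22.5% of all genes lower and 14.7% higher. CYP17A1, the androgen-forming enzyme of theca cells, was represented by 1 UMI in the 96 barcodes. Granulosa barcodes of the 6 ewes stood at 0.0212, 0.598 and 2.4 per 10000, and theca barcodes, which the gene defines, at 1.54, 3.71 and 6.65. CYP19, the aromatase gene, and INSL3, a theca hormone, were at 0 UMI. HSD17B1, which reduces oestrone to oestradiol, stood at 0.556 per 10000 against 1.26, 1.81 and 3.47 in granulosa barcodes. HSD17B12, which also acts in fatty acid elongation, stood at 1.11 per 10000, 2.01-fold above granulosa barcodes (1.62 to 2.48) and 1.03-fold against theca barcodes.

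Genes of cholesterol supply and synthesis are given beside the 14.7% of all genes higher and 22.5% lower than in granulosa barcodes. SCARB1, the receptor for high-density lipoprotein, stood at 3.05 per 10000, 2.7-fold above granulosa barcodes (2.35 to 3.09), while theca barcodes of the 6 ewes reached 4.13. Among the barcodes under 1% mitochondrial UMI alone it stood below granulosa barcodes, with a log2 ratio of -0.40. Of 9 measured genes of supply, 2 were at least 2 times higher than in granulosa barcodes (SCARB1 and GRAMD1B) and 2 lower (NPC2 and LIPA). Of 14 genes of cholesterol synthesis, none was higher and 3 were lower (INSIG1, IDI1 and MSMO1), and none passed either limit against theca barcodes, where 17.3% of all genes were higher and 17.2% lower.

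**Figure D2:**
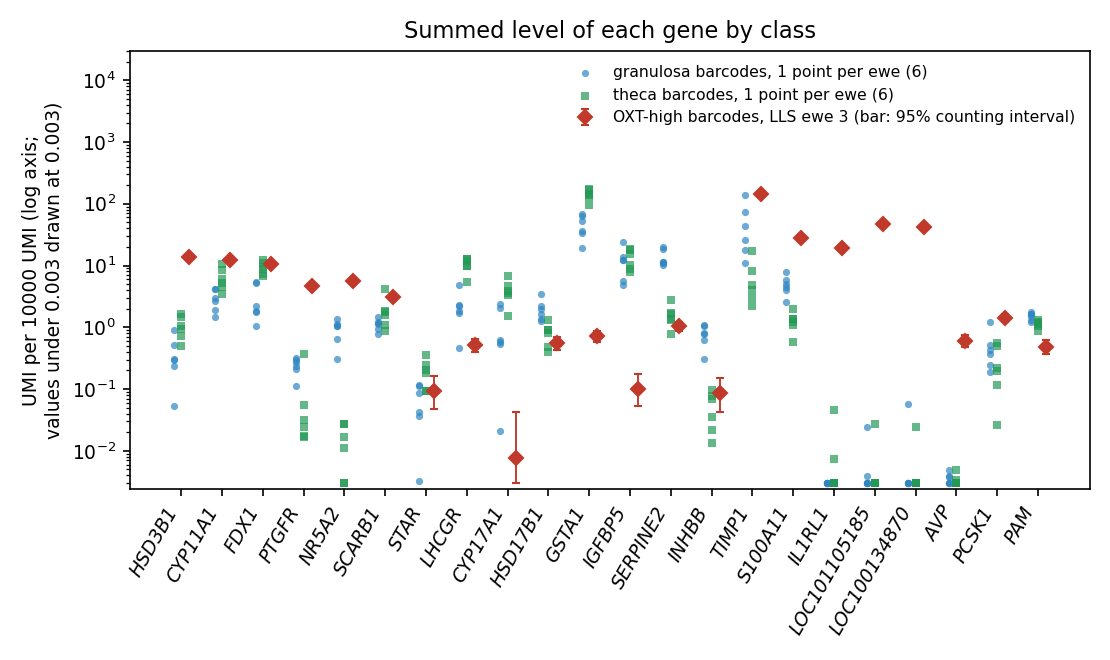
Summed level (UMI per 10000 UMI, log axis) of 22 genes in granulosa barcodes (blue) and theca barcodes (green) of each of the 6 ewes and in the OXT-high barcodes of LLS ewe 3 (red, with 95% exact Poisson intervals). The red points of HSD3B1, PTGFR, NR5A2, IL1RL1, LOC101105185 and LOC100134870 lie above every blue and green point, and those of CYP17A1, GSTA1 and IGFBP5 lie below all of them.

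Among receptors of luteal hormones, PTGFR was high and LHCGR low. Of 7 measured receptors, 2 were at least 2 times above granulosa barcodes (PTGFR and PGRMC1) and 3 below (LHCGR, IGF1R and INSR). Of all genes, 14.7% were higher and 22.5% lower. Against theca barcodes 3 of 8 were higher (PTGFR, GHR and PGR) and 4 lower, beside 17.3% and 17.2% of all genes. PTGFR stood at 4.66 per 10000 (4.29 to 5.05), against 0.112, 0.251 and 0.318 in granulosa barcodes and 0.0165, 0.0283 and 0.367 in theca barcodes. The level was 21.7-fold above granulosa (17.3 to 27.4) and 146-fold above theca barcodes (84.9 to 276) of the same library. LHCGR, the receptor for luteinizing hormone, stood at 0.51 per 10000 in 14 of 96 barcodes, against 0.461, 2 and 4.75 in granulosa and 5.33, 10.9 and 12.9 in theca barcodes. It was 9.31-fold lower than in granulosa barcodes of LLS ewe 3 (7.28 to 12.1), although the lowest ewe, LLS ewe 2, had a granulosa level below it. Of its 66 UMI, 51 lay in the 2 barcodes with the most COL1A1, and without these the level was 0.12 per 10000, under that of granulosa barcodes in every ewe. The granulosa comparison turned over without the mixed barcodes, where LHCGR stood above granulosa barcodes by 0.57 on the log2 scale. IGF1R and INSR, the receptors for insulin-like growth factor 1 and insulin, were lower, at 0.224 and 0.162 per 10000 against granulosa minima of 1.45 and 0.576. OXTR, the oxytocin receptor, was at 0, but held only 1 UMI in granulosa and 0 in theca barcodes of LLS ewe 3.

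Oxytocin is released from its precursor by convertases, a carboxypeptidase and an amidating enzyme, and these genes did not move together. PCSK1, the convertase of regulated secretion, stood at 1.42 per 10000, against 0.19, 0.398 and 1.22 in granulosa barcodes, and its log2 ratio was 0.27 among OXT-high barcodes under 1% mitochondrial UMI alone. PCSK5 and PCSK1N were also at least 2 times above granulosa barcodes, at 0.788 and 0.255 per 10000. The amidating enzyme PAM and the carboxypeptidase CPE were lower, at 0.487 and 0.0541 per 10000 against granulosa minima of 1.23 and 0.31. Of 9 measured genes 4 were higher, 3 lower and 2 between, with a median log2 ratio of -0.11, as over all genes, of which 14.7% were higher and 22.5% lower. The fourth higher gene, AVP, is the vasopressin gene and neighbours OXT in RefSeq. It had 78 UMI in 39 of the 96 barcodes. As both genes share a nearly identical neurophysin stretch, its reads cannot be fully told apart from those of OXT, whose UMI in the same barcodes numbered 42516. The granins SCG2, CHGB and VGF were at 0, but SCG2 was also at 0 in granulosa barcodes of LLS ewe 3.

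Most genes of the granulosa list were low. Of 17 measured genes of the granulosa list, apart from the 4 that define the class, 13 stood at least 2 times below granulosa barcodes and 1, JPH1, above, with a median log2 ratio of -2.9, beside 22.5% of all genes lower and 14.7% higher. IGFBP5, an insulin-like growth factor binding protein, stood at 0.1 per 10000 against 4.84, 12.4 and 24.4 in granulosa and 7.98, 12.8 and 18.2 in theca barcodes. SERPINE2, a protease inhibitor of granulosa cells, stood at 1.05 per 10000 against 10.2, 11.2 and 19.7 in granulosa barcodes. GSTA1, a glutathione transferase that was more abundant in theca than in granulosa barcodes, stood at 0.718 per 10000 against 19.3, 43.9 and 69.2 in granulosa barcodes, and was 228-fold lower than in theca barcodes of the same library (186 to 283). AMH and IHH, signalling proteins of granulosa cells, were at 0, with 126 and 116 UMI in granulosa barcodes of the same library. Of the genes that define granulosa barcodes, INHA stood at 0.85, CDH2 at 0.603 and FST at 0.147 per 10000, and FSHR, the receptor for follicle-stimulating hormone, at 0. All 5 cell cycle genes were at least 2 times below granulosa barcodes, where 22.5% of all genes were, with TOP2A at 5 UMI in all.

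Of the luteinization and secreted factors, TIMP1, an inhibitor of matrix metalloproteinases, was found in every one of the 96 barcodes at 146 per 10000 (144 to 148). In granulosa barcodes of the 6 ewes it stood at 10.8, 35.1 and 138, so that the highest ewe came close, and in theca barcodes at 2.23, 4.4 and 17.0. AREG and EREG, ligands of the epidermal growth factor receptor, and TNFAIP6, a hyaluronan-binding protein of the ovulating follicle, were the other 3 of 14 genes at least 2 times above granulosa barcodes, where 14.7% of all genes stood higher and 22.5% lower. AREG was detected in 47 of 96 barcodes, EREG in 26 and TNFAIP6 in 48. 8 genes were at least 2 times lower, among them INHBA, the activin subunit, at 0.108 per 10000 against a granulosa minimum of 1.19.

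Of the 6 haemoglobin genes named in the files, HBB, HBE1, LOC101105185 and LOC100134870 were detected in OXT-high barcodes, and HBM and HBQ1 were at 0. LOC101105185, described in the study's gene annotation as a haemoglobin subunit of the epsilon type, and LOC100134870, which RefSeq also lists as HBBC, lie beside HBE1 and HBB in 1 gene cluster of the sheep assembly. LOC101105185 stood at 47.8 per 10000 (46.6 to 49.0) in OXT-high barcodes, and over the 6 ewes at no more than 0.0244 in granulosa and 0.0269 in theca barcodes. LOC100134870 stood at 41.5 per 10000 (40.4 to 42.6), and at no more than 0.0562 in granulosa and 0.0245 in theca barcodes. Since near-identical copies can share reads, the split between these genes is uncertain.

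These counts belonged to LLS ewe 3. Its library held 13648 UMI of both genes together, and the other 5 libraries held 15. OXT-high barcodes accounted for 84.6% of the 13648. All haemoglobin genes together gave 11865 UMI in the 96 barcodes, of which HBE1 gave 192 and HBB 120. The HBB UMI lay in 5 barcodes, with 115 of them in 1 barcode. A further 10 UMI came from LOC114110673 and LOC101108797, which lie between HBM and HBQ1 in RefSeq. Of 6 other red blood cell genes in the files, ALAS2, SLC4A1 and EPB42 were at 0, but ALAS2 was at 0 in all 6 libraries and SLC4A1 at 0 in the granulosa, theca and endothelial barcodes of all ewes. SLC25A37, a mitochondrial iron carrier, had 39 UMI in 24 barcodes (0.301 per 10000 against 0.427 in granulosa barcodes), and GYPC, a membrane glycoprotein, had 6 UMI. The share of UMI in haemoglobin genes had a median of 0.447% and a maximum of 5.66%, and 1 barcode exceeded 5%.

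Single barcodes differed in which haemoglobin gene they carried. At a limit of 10 UMI, 35 of the 96 barcodes passed for LOC101105185 only, 12 for LOC100134870 only, 13 for both and 36 for neither. Counts were concentrated, with 61.7% of LOC101105185 UMI and 78.7% of LOC100134870 UMI in the 10 highest barcodes for each. The Spearman correlation between both genes was 0.084 over the 96 barcodes, which share a library. In barcodes thinned to 1000 UMI, LOC101105185 was detected in 52.1% of OXT-high, 0.317% of granulosa, 0% of theca and 0.797% of endothelial barcodes. Before thinning it was detected in 72 of the 96 OXT-high barcodes and in 3.17, 4.37 and 4.98% of the other classes. Among other passing barcodes of LLS ewe 3, 18 held at least 5 UMI of both genes summed. Their median depth was 2078.5 UMI and their OXT count ran from 0 through a median of 12.5 to 54 UMI, with 12 of 18 at 5 or more.

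**Figure D3:**
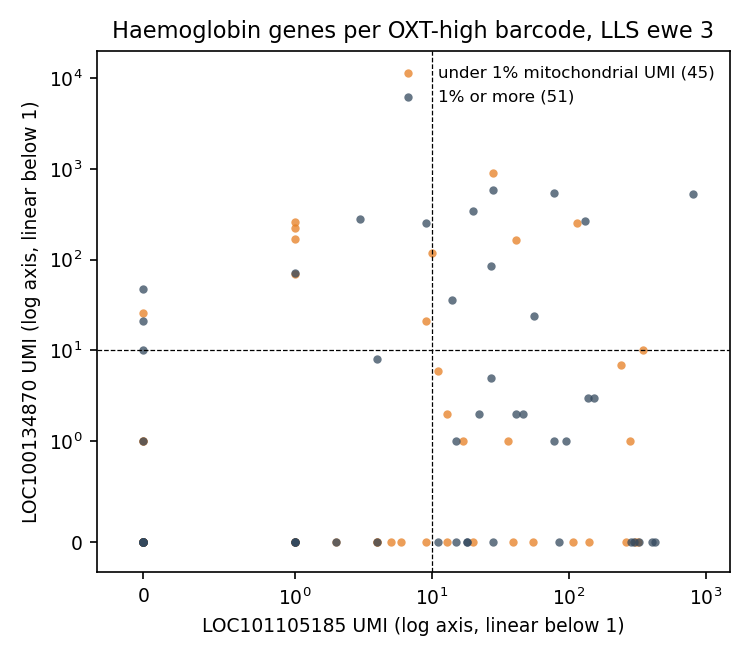
UMI of LOC101105185 (x axis) and LOC100134870 (y axis) in each of the 96 OXT-high barcodes of LLS ewe 3, on log axes that are linear below 1. Colour gives the mitochondrial share, and dashed lines mark 10 UMI. The 35 barcodes at lower right and the 12 at upper left hold at least 10 UMI of 1 gene, and the 13 at upper right hold both.

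IL1RL1, the interleukin-33 receptor, was found in 51 of the 96 barcodes at 19.1 per 10000 (18.4 to 19.9), with a median of 1.53 and 64.6% of its UMI in the 10 highest barcodes. Over the 6 ewes it stood at no more than 0.00244 in granulosa and 0.0459 in theca barcodes. In LLS ewe 3 the contrast rested on 1 UMI in granulosa and 3 in theca barcodes. Among mast cell genes, CPA3, MS4A2 and HDC were at 0 and KIT at 3 UMI, and the first 3 did not pass 0.00489 per 10000 in granulosa, theca or endothelial barcodes of any ewe. Of the 11 genes of the immune list 7 were at 0, including CD53, LCP1 and FCER1G, while PTPRC, the leukocyte phosphatase CD45, was detected in 30 barcodes at 0.958 per 10000. IL1RL1 was singled out after its values were seen, as the largest ratio against granulosa barcodes in LLS ewe 3 alone.

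Markers of other cell types did not all lie on the same side of the granulosa barcodes. The immune list summed to 1.03 per 10000 in OXT-high barcodes against 0.381 in granulosa and 0.135 in theca barcodes of LLS ewe 3, nearly all of it PTPRC. PTPRC stood 13.5-fold above granulosa (8.97 to 21.0) and 10.9-fold above theca barcodes, with 73.4% of its 124 UMI in the 10 highest barcodes and a median of 0. The endothelial list summed to 1.05 per 10000 in OXT-high barcodes against 5.14 in granulosa barcodes of LLS ewe 3, with PECAM1 the most abundant at 0.278. The stromal list summed to 8.65 against 36.8, and COL1A1, a collagen chain, made up 5.31 of it. Of its 688 UMI 409 lay in 1 barcode. The perivascular list summed to 0.209, with DES at 0.

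The rule for named genes took the largest ratios in LLS ewe 3. It kept only genes with the same direction in HLS ewe 1 and LLS ewe 1. This condition is weak and does not replicate the set. The OXT-high barcodes of these ewes held only 17106 and 7924 UMI, and those of HLS ewe 1 went against a luteal label. PTGFR passed as higher with 2 UMI in HLS ewe 1, and CYP17A1 passed as lower without a UMI in either ewe. The highest gene against granulosa barcodes was LOC101117184, at 146 per 10000 against 5.19. LOC101117184 was found in all 96 barcodes and stood 28.1-fold above granulosa (26.9 to 29.4) and 154-fold above theca barcodes (140 to 171). Endothelial barcodes of LLS ewe 3 stood at 22.5 per 10000, so the ratio to them was only 6.48 (6.38 to 6.59). LOC101117691, at 7.86 per 10000, was named by the same rule, and LOC101117955, at 57.1, was named against theca barcodes only. In RefSeq all 3 lie around MT1B and close to MT3 and MT4, which are metallothionein genes, and the table used gives no description of the 3 genes themselves. IL1R1, the receptor of interleukin 1, stood at 1.39 per 10000 (13.6-fold above granulosa barcodes), and FABP5, a fatty acid carrier, at 2.93 (7.64-fold). CISD3, a mitochondrial iron-sulphur protein, and GFPT2, an enzyme of the hexosamine pathway, stood 9.98-fold and 9.73-fold above granulosa barcodes. PGAM1, a glycolytic enzyme, and CHCHD10, a mitochondrial protein, were higher at 18.1 and 27.6 per 10000, and GLIPR2 at 1.79. Without the condition on other ewes, IL1RL1, LOC101105185 and LOC100134870 had the largest ratios to granulosa barcodes in LLS ewe 3. KRT8, at 11.7 per 10000, then ranked high against theca barcodes, 797-fold above their 6 UMI (366 to 2180).

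Against theca barcodes the rule also named S100A11, a calcium-binding protein, at 27.5 per 10000 and 20.5-fold higher (18.7 to 22.4), and COBLL1 at 2.37, 17.3-fold higher. S100A10 and its binding partner ANXA2 were at least 2 times above both classes, while ANXA1 was at least 2 times below both.

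The genes named as lowest were ALPL, alkaline phosphatase, with 1 UMI in OXT-high barcodes and 6.32 per 10000 in granulosa barcodes, and CYP17A1, TOP2A, UBE2C, CENPE, NCAM1, PTN and GSTA1. TOP2A, UBE2C and CENPE act in cell division, NCAM1 in cell adhesion, and PTN is a secreted growth factor that stood at 0.209 per 10000 against 7.6. LOC114109701 and LOC114108595 completed the list with 1 and 2 UMI. Against theca barcodes RNF144A, BGN, TG, AS3MT and GSTA1-1 were named as well, with 1, 5, 2, 0 and 2 UMI in the OXT-high barcodes.

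IRF7, a regulator of interferon genes, was 22.8-fold above granulosa barcodes (16.7 to 31.9), and of the other 4 measured interferon-induced genes IFI6 was at least 2 times lower and 3 lay between. Against the 14.7% of all genes higher and 22.5% lower than in granulosa barcodes, counts of the remaining lists are given as descriptions. SOD2, GPX4, PRDX2 and PIR were the 4 of 14 antioxidant genes at least 2 times higher, and CAT, the catalase gene, was lower. BAK1, a pro-apoptotic protein of the outer mitochondrial membrane, was the 1 gene of 10 measured for cell death that stood at least 2 times higher, and BCL2 and GADD45A were among those lower. Of 7 measured prostaglandin genes 3 were higher (PTGES2, PTGIS and PLA2G4A) and 2 lower (PTGES and SLCO2A1).

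The OXT-high barcodes of LLS ewe 3 fell apart by mitochondrial share. The median share was 1.41% with quartiles of 0.289 and 4.46, against medians of 4.07% in granulosa and 4.74% in theca barcodes. Below 1% lay 45 of 96 OXT-high barcodes (46.9%), 3.49% of granulosa barcodes, 1.98% of theca barcodes and 0.37% of endothelial barcodes. LOC121818276 is listed in RefSeq as a transcribed pseudogene and was not counted among the mitochondrial genes. Its level followed the mitochondrial share with a Spearman correlation of 0.98 over the 96 barcodes, and the origin of its reads was not tested. LOC121818276 stood at 13.0 per 10000 in barcodes under 1% and at 180 in the rest.

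**Figure D4:**
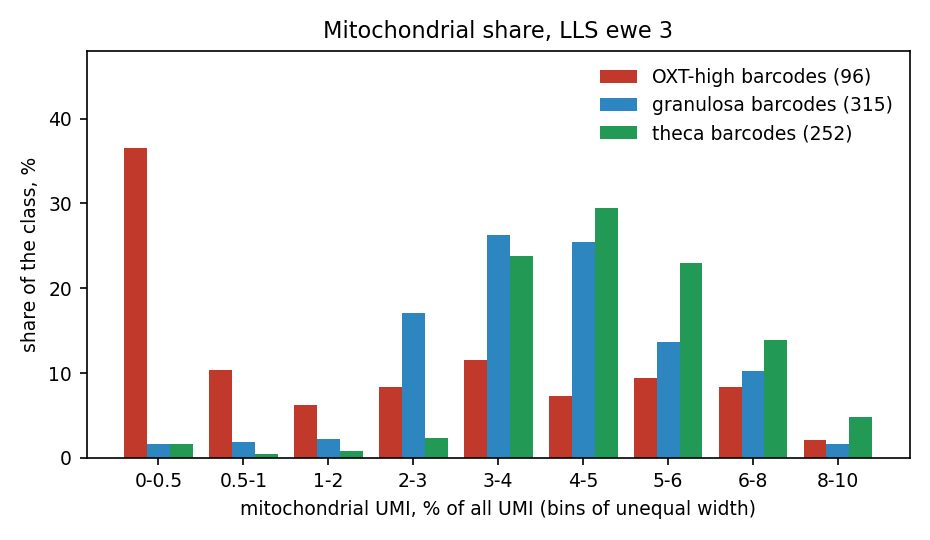
Share of OXT-high, granulosa and theca barcodes of LLS ewe 3 (y axis, % of the class) in bins of mitochondrial UMI (x axis, % of all UMI, unequal bin widths). The bin under 0.5% holds 36.5% of the OXT-high barcodes, their largest share, while granulosa and theca barcodes lie mostly between 2 and 8%.

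Both fractions carried the marker genes. OXT stood at 281 per 10000 in the 45 barcodes under 1% and at 346 in the other 51, HSD3B1 at 14.5 and 13.8, and CYP11A1 at 13.3 and 11.8. FDX1 was higher in the fraction under 1%, with an interval of 18.6 to 21.6 per 10000 for its summed level against 6.9 (6.38 to 7.45) in the rest. The summed level of LOC101105185 was 70.3 against 39.5, with a median over barcodes of 10.7 against 7.68 and detection in 34 of 45 and 38 of 51 barcodes. PTGFR was lower, at 2.12 against 5.6, as were IL1RL1, at 8.19 against 23.2, SCARB1, at 0.859 against 3.86, and NR5A2, at 2.89 against 6.5. HSPA5, the chaperone of the endoplasmic reticulum, stood at 4.09 against 63.1. Median depth also differed, at 6193 UMI and 1985 genes under 1% and at 19341 UMI and 4662 genes above, and the part of depth and RNA quality in these differences was not tested.

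Of the marker genes other than OXT, HSD3B1 and FDX1 had a Spearman correlation of 0.37 across the 96 barcodes, HSD3B1 and CYP11A1 of 0.25, and HSD3B1 and PTGFR of 0.15. All values come from 1 library with barcodes of unequal depth, so they are descriptions only.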

How the data were processed

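The authors mapped the reads of the 6 libraries with Cell Ranger 5.0.0, which runs STAR, and deposited raw UMI counts per gene and barcode. The genome build is not given in the sources used here, so no coordinates or sequences are printed. Counts were used as deposited, with all 37 mitochondrial genes recognised by name. No doublet caller was run, and barcodes with at least 3 UMI of other cell types were counted instead.

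UMI were summed per class and ewe and scaled to 10000. The planned edgeR test across ewes was not possible, because LLS ewe 3 alone held enough OXT-high barcodes. A ratio of at least 2, for genes with a mean of at least 0.1 per 10000, was reported instead. A ratio against 0 used a floor of 3 UMI over the class. Named genes had at least 1 UMI per 10000 in the higher class and the 10 largest ratios each way. Members and gene lists were chosen with earlier results of these data known. The ratio step was tested on simulated data. Python 3.11.15, numpy 2.4.6, scipy 1.17.1, pandas 2.3.3, matplotlib 3.10.9 and, for TMM factors, R 4.3.3 with edgeR 4.0.16 were used. RefSeq names come from assembly ARS-UI_Ramb_v3.0. Some genes of the lists are not reported here by name.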

Additional observations from a re-analysis of the deposited data

Results flagged for a closer look

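Barcodes that failed the limits on depth or mitochondrial share also held OXT. In LLS ewe 1, 2 such barcodes carried at least 30 OXT UMI, with totals of 578 and 643 UMI and 5 and 6 UMI of STAR. In LLS ewe 3 there were 5, among them 1 of 26945 UMI with 625 OXT UMI, 83 UMI of HSD3B1, no STAR and a mitochondrial share of 11.2%. None was found in the 3 HLS ewes or in LLS ewe 2. All 5 barcodes of LLS ewe 3 carried LOC101105185, with 1 to 20 UMI, and neither barcode of LLS ewe 1 did.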

How the results depend on the processing

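The difference in the share of OXT-high barcodes between HLS and LLS kept its sign under every alternative run. It ranged from -0.639 to -0.00334 percentage points when each ewe was left out in turn, and rested on LLS ewe 3. The replicate block, which pairs ewes by number only, gave -0.422. Without the filter on low counts, 2069 genes stood at least 2 times higher and 3873 lower than in granulosa barcodes, and 2407 higher and 2909 lower than in theca barcodes. With OXT-high barcodes of 1% or more mitochondrial UMI left out and the other classes kept whole, an alternative added after seeing the data, 1401 genes were higher and 3208 lower than in granulosa barcodes, and 1503 higher and 2648 lower than in theca barcodes. The log2 ratio then turned for SCARB1 (-0.40) and CYP19 (0.23, at the floor for 0 UMI) against granulosa, and for VCAN (-0.66) and PCSK1 (-0.12) against theca barcodes. Without mixed barcodes, LHCGR turned to 0.57 against the 34 granulosa barcodes left, and the log2 ratio of HSD3B1 moved to 6.87. Leaving out the 2 OXT-high barcodes with the most COL1A1, added after seeing the data, moved LHCGR to -5.31. The cause was not tested. TMM scaling, also added later, moved all log2 ratios by 0.15 against granulosa barcodes. Of 826 alternative values for 98 gene ratios, 628 stayed within the counting interval, 193 moved beyond it and 5 changed sign. Not run for lack of a second library with enough OXT-high barcodes were the edgeR and DESeq2 fits, the fit without the ewe as a block, other minimum barcode numbers, ratios without each ewe, and HLS against LLS within the set. No theca barcode was left without mixed ones.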
